A study of Homo sapiens with 6 samples.

Results

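The kallikrein-related peptidases KLK5 to KLK14 are 10 secreted serine proteases whose genes lie side by side on chromosome 19, and all 10 are present among the 19077 gene symbols kept from the deposited table. They were chosen by gene name as the cluster that holds KLK6, a gene already seen to be far lower in gemcitabine-resistant than in unsorted parental cells. The levels in those 2 libraries are therefore given as a description, with no test.

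The 6 RNA libraries came from SW1990, a long-established cell line of human pancreatic adenocarcinoma. The unsorted parental line was kept in DMEM/F-12 with fetal bovine serum and gave 1 library. Its gemcitabine-resistant derivative was kept in the same medium with 100 nM gemcitabine, a nucleoside analogue, and also gave 1 library, so resistance and exposure to the drug cannot be told apart. Flow cytometry of the parental line gave 2 libraries of TRA-1-81 positive and 2 of TRA-1-81 negative cells. TRA-1-81 is a keratan sulphate-related sugar structure that antibodies detect on podocalyxin and that is used to recognise stem cells. One library of each fraction has 0603 and one 0610 in its title, without a stated meaning. The labels do not say whether the libraries came from separate cultures or whether the derivative is a clone, and the p-values here reflect sample-to-sample spread alone, part or all of which may be technical.

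Kallikrein-related peptidases are made as inactive precursors and are activated by removal of a short propeptide, often by one another. In skin they form a cascade that cuts the proteins holding dead surface cells together, and tissue inhibitors such as LEKTI hold that cascade in check. They are released by many glandular epithelia, several respond to steroid hormones, and KLK6 and KLK10 have been studied as tumour markers, in pancreatic cancer among others.

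Values are FPKM, fragments scaled by transcript length and by the library's mapped fragments, so levels can be compared between genes. Log2 ratios are of FPKM + 1, which understates the change of low genes. Between 11164 and 11729 genes had an FPKM of at least 1 in a library. A count of 3 fragments on a transcript of 1 kb corresponds roughly to an FPKM of 0.0949 to 0.169, depending on the library. Across all genes the log2 values of the sorted libraries correlated with each other at 0.996 or more, with the parental library at 0.975 to 0.980 and with the resistant library at 0.960 to 0.968, while parental and resistant correlated at 0.942. The 6 epithelial markers summed to 4291 FPKM in the resistant and 4694 to 5840 in the other libraries. EPCAM, KRT8 and KRT18 were lower in resistant than in unsorted parental cells, and KRT7, KRT19 and CDH1 were higher.

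The cluster, from KLK1 to KLK14, spans 265 kb in hg19, chr19:51322404-51587502. KLK5 (chr19:51446559-51456344) and KLK6 (chr19:51461887-51472929) are followed in order of coordinate by KLK7, KLK8, KLK9, KLK10 (chr19:51516000-51523431), KLK11 (chr19:51525487-51531290), KLK12, KLK13 (chr19:51559463-51568367) and KLK14. RefSeq's table of gene starts, in build GRCh38.p14, matched 9 of the 10 genes, with 16 starts between them. A set of 3 is shown because their genes represent the 3 kinds of pattern in the values: the lowest ratio in resistant cells (KLK6), the highest (KLK13) and a level that stayed high in every library (KLK10). Each runs 5′ to 3′ on the minus strand of chromosome 19, from 250 bases before the start to 50 after it, at chr19:50969542-50969841 for KLK6, chr19:51065043-51065342 for KLK13 and chr19:51019812-51020111 for KLK10. Capitals mark GC boxes and ETS sites.
KLK6: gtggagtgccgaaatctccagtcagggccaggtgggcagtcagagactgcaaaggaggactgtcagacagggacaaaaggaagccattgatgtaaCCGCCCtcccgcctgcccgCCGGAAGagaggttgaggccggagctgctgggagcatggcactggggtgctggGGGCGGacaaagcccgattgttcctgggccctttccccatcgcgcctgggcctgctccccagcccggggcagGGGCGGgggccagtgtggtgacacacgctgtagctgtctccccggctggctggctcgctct
KLK13: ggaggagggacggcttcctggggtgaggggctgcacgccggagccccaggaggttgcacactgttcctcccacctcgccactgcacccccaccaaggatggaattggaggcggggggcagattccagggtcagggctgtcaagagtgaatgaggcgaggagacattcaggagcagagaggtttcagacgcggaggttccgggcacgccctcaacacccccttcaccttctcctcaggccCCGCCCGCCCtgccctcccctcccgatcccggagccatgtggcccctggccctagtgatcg
KLK10: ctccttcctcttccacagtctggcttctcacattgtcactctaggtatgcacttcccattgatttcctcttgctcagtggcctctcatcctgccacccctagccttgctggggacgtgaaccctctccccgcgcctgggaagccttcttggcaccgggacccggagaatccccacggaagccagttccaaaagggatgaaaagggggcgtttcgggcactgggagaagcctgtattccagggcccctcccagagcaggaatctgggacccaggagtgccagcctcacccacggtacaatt

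The search, on both strands, covered the TATA box TATAAA, the GC box GGGCGG, the AP-1 site TGANTCA, the ETS site CCGGAAG, the grainyhead-like site AACCGGTT and the steroid receptor half-site AGAACA. The KLK6 window held 3 GC boxes and 1 ETS site. The KLK13 window held 2 overlapping GC boxes and the KLK10 window none of the 6 motifs. GC boxes are present in 44.95% and the ETS site in 10.26% of the 35116 promoters in the table. None of the 16 kallikrein windows held the TATA box, AP-1, grainyhead-like or half-site letters, which occur in 11.53%, 7.71%, 0.13% and 14.79% of all promoters. KLK6 and KLK13 had 15 CpG dinucleotides each and KLK10 had 9, beside a median of 14 over all promoters. KLK10 and KLK13 each have another start in the table, whose windows differ: that of KLK10 holds 1 ETS site and 11 CpG, and that of KLK13 holds 4 GC boxes and 23 CpG. Which start these cells used was not measured.

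Of the 10 genes, 4 reached an FPKM of 5 in any library: KLK6, KLK10, KLK11 and KLK13. The other 6 stayed under 2 in every library. The resistant library differed from the unsorted parental one in opposite directions within the cluster, with KLK6 lowest and KLK13 highest by ratio. The plot of each gene by library shows that these are not 1 block of genes moving together.

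**Figure D1:**
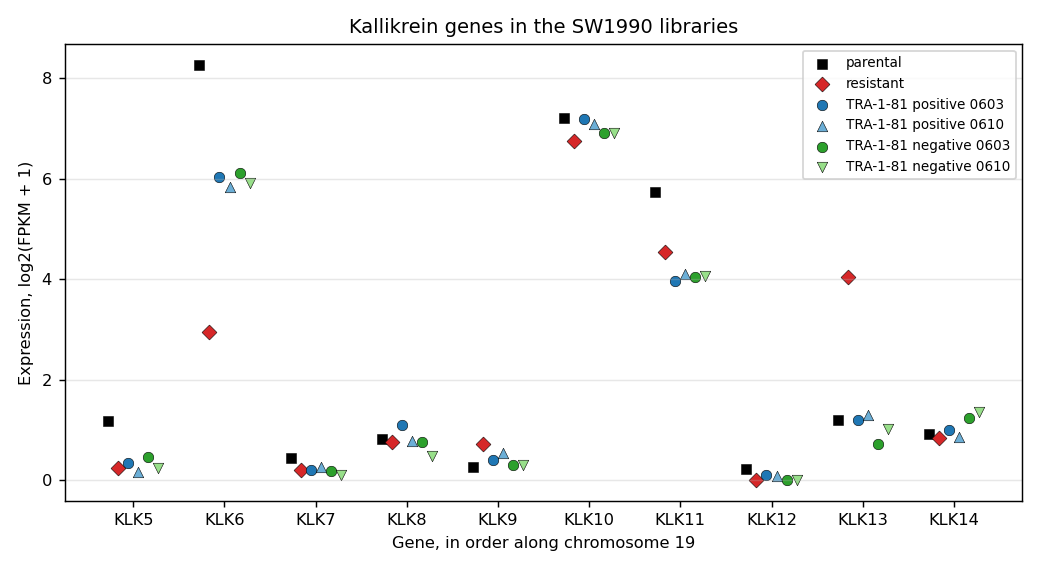
Expression of the 10 kallikreins as log2(FPKM + 1) on the vertical axis, by gene in chromosomal order, with 1 point per library and no error bars. KLK6 stood at an FPKM of 307 in parental, 55.7 to 68.4 in sorted and 6.71 in resistant cells, while KLK13 stood at 15.5 in resistant cells and at 1.45 or less in the other 5.

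KLK6, also called neurosin, is a trypsin-like protease abundant in the central nervous system and raised in several carcinomas. Its FPKM was 307 in unsorted parental and 6.71 in resistant cells, 45.7-fold lower by FPKM and a log2 ratio of -5.32. In bulk RNA, fewer cells that express a gene and less RNA per cell cannot be told apart. The sorted libraries held 64.8 (positive 0603), 55.7 (positive 0610), 68.4 (negative 0603) and 58.9 (negative 0610). All 4 lay between the unsorted parental and the resistant library. Their mean, 61.95 ± 5.68 (SD, n = 4), was 9.23-fold above the resistant value and 4.95-fold below the unsorted parental one. Whether sorting, culture or library preparation separates the sorted from the unsorted parental cells cannot be told apart. KLK6 ranked 224 by FPKM among all genes in the parental library, between 1225 and 1510 in the sorted ones and 7910 in the resistant one.

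KLK13 is a trypsin-like enzyme of stratified epithelia and testis. Its FPKM was 1.30 in unsorted parental and 15.5 in resistant cells, 11.9-fold higher and a log2 ratio of 2.84. The sorted libraries held 1.29 (positive 0603), 1.45 (positive 0610), 0.634 (negative 0603) and 1.03 (negative 0610). The resistant value was above each of the 5 parental-line libraries and 14.1-fold above the mean of the sorted ones. It ranked 10860 by FPKM in parental and 5037 in resistant cells. The direction of KLK13 is thus opposite to that of KLK6.

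KLK10, first described as a gene expressed in normal but not in most tumour mammary cells, was the most even of the abundant members. It stood at 146 in unsorted parental and 106 in resistant cells, a log2 ratio of -0.46. Positive libraries held 145 and 136, and both negative ones 119. The resistant value was the lowest of the 6 but within 2-fold of each of them. KLK11, known as hippostasin, stood at 52.4 in unsorted parental and 22.4 in resistant cells, a log2 ratio of -1.19. Positive libraries held 14.6 and 16.1, and negative ones 15.4 and 15.8. The resistant value thus lay below the unsorted parental but above all sorted libraries, and its direction depended on which parental cells it was set against: the log2 ratio to the mean of the sorted libraries was 0.51.

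The other 6 members were low. KLK5, the protease that starts the epidermal cascade, stood at 1.25 in unsorted parental, 0.188 in resistant and 0.123 to 0.372 in sorted cells. KLK7, the chymotrypsin-like enzyme of the cornified layer, stood at 0.364, 0.151 and 0.0712 to 0.192 in the same order. For both genes the resistant value lay within the range of the sorted libraries, and the unsorted parental library was the highest. KLK8, or neuropsin, known for its part in synaptic plasticity in mice, stood at 0.759 in unsorted parental, 0.694 in resistant and 0.400 to 1.13 in sorted cells. KLK14, a strongly active trypsin-like enzyme of skin, stood at 0.887, 0.777 and 0.798 to 1.55, with the resistant library lowest. KLK9 stood at 0.196, 0.638 and 0.227 to 0.443, with the resistant library highest. KLK12 was listed at 0 in the resistant and both negative libraries, and at 0.165 in the unsorted parental and 0.0720 and 0.0616 in the positive ones. Of the 60 values of the 10 genes, 8 lay at or under what 3 fragments would give, namely all 6 of KLK12, the parental value of KLK9 and the negative 0610 value of KLK7.

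KLK5, KLK6, KLK10, KLK11 and KLK13 reached an FPKM of 1 in the parental or the resistant library. Of these 5, resistant cells had 1 member at least 2-fold above and 2 at least 2-fold below the parental level, on the log2(FPKM + 1) scale. Over all 12066 genes measured there, 13.5% were higher and 6.9% lower by that rule. The choice of the cluster used this contrast, so the shares are a description. The median log2 ratio of these 5 was -0.92, the value of KLK5, beside 0.09 over all genes, and is a description too. KLK5 reached an FPKM of 1 in the parental library alone, at 1.25 against 0.188 in resistant cells. Members outside these 5 ran from -0.24 (KLK7) to 0.45 (KLK9). KLK5 had a log2 ratio of -0.92 and passed the fold at -1.14 after quantile normalization and at -2.23 with a pseudocount of 0.1. Quantile normalization moved the median of all genes to -0.06 and the share of higher among changed genes from 66.2% to 52.9%, and gave KLK6 -5.29 and KLK13 2.64.

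Against the mean of the 4 sorted libraries, 6 members were measured. KLK13 was at least 2-fold higher (log2 ratio 2.99) and KLK6 at least 2-fold lower (-3.02), where 8.18% of 12157 genes were higher and 4.89% lower. These values share the resistant library with those above and are not independent of the choice of the cluster. Of the 7 members that reached an FPKM of 1 anywhere, KLK13 in resistant cells lay above all 5 parental-line libraries, as did 38.5% of 12251 genes. KLK6, KLK10 and KLK14 lay below all 5, as did 30.1% of genes, and KLK5, KLK8 and KLK11 lay within their range. KLK8 and KLK14 were among the 6 and the 7 only through sorted libraries, and KLK5 among the 7 only through the unsorted parental one. KLK14 was below by a narrow margin, 0.777 against at least 0.798. These counts are therefore a description.

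The unsorted parental library was also set against the sorted libraries, which came from the same line. Of the 7 members measured there, KLK5, KLK6, KLK10 and KLK11 were higher in the unsorted library than in each sorted one, 4 of 7, as were 36.2% of 11823 genes. KLK10 was so by a narrow margin, 146 against at most 145. KLK5 was among the 7 only through the unsorted library, and KLK8 and KLK14 only through sorted ones. The unsorted value of KLK6 also entered the choice of the cluster, so the count is a description. In log2 ratio of the sorted mean to the unsorted parental library, KLK6 (-2.29) and KLK11 (-1.70) were at least 2-fold lower and 0 of the 7 measured members were at least 2-fold higher. Over 11823 genes, 2.08% were lower and 5.39% higher by that rule. KLK5 stood at -0.86 and passed the fold at -1.02 after quantile normalization and at -2.05 with a pseudocount of 0.1. There is 1 unsorted parental library, so these differences have no replicate check.

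The mix of kallikrein transcripts differed as well. The 10 genes summed to an FPKM of 510 in unsorted parental, 153 in resistant and 197 to 229 in sorted cells. KLK6 made up 60.1% of that sum in parental, 26.4% to 33.2% in sorted and 4.39% in resistant cells. KLK10 made up 28.7%, 57.7% to 64.2% and 69.2%, so that it was the most abundant kallikrein outside the unsorted parental library. KLK13 made up 0.255% of the sum in parental and 10.1% in resistant cells, where it was above KLK6.

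**Figure D2:**
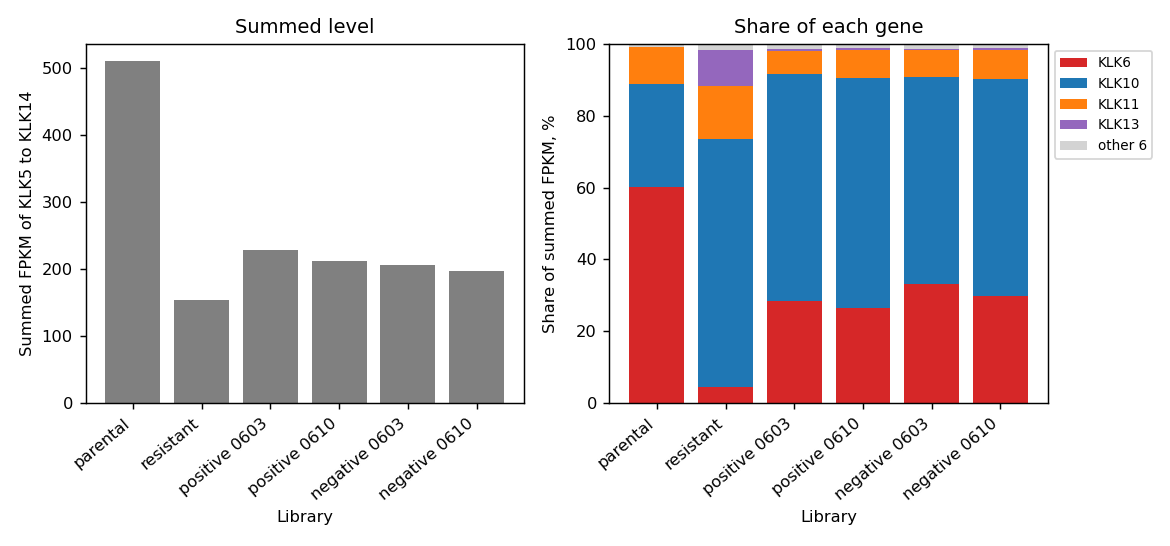
Summed FPKM of KLK5 to KLK14 per library (left) and the percentage of that sum from KLK6, KLK10, KLK11, KLK13 and the other 6 genes together (right), with 1 bar per library. The sum is 510 in parental and 153 in resistant cells, and the KLK6 share is 60.1% and 4.39%.

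Genes beside the cluster had smaller ratios to parental cells than KLK6, KLK11 and KLK13. The log2 ratios of CTU1 (0.60) and JOSD2 (0.50) there were larger in size than that of KLK10 (-0.46). Of the other kallikreins of the locus, KLK1, tissue kallikrein, stood at 0.313 in unsorted parental, 2.26 in resistant and 0.357 to 0.638 in sorted cells, a log2 ratio of 1.31 to parental and 1.09 to the sorted mean. KLK2, KLK3, KLK4 and KLK15 stood at 0.0872 or less in every library. Within 500 kb of the cluster ends the table holds 35 other genes, of which 9 reached an FPKM of 1 in parental or resistant cells. Their log2 ratios of resistant to parental ran from -0.39 to 0.60, and 0 of 9 were at least 2-fold higher or lower. Over all 12066 genes measured, 13.5% were higher and 6.9% lower by that rule. C19orf48, the measured gene next to KLK1, stood at 116 and 88.1, and CTU1, a tRNA-modifying enzyme gene next to KLK14, at 1.73 and 3.14. Of the other genes that reached an FPKM of 5, EMC10, a subunit of a membrane protein insertion complex, stood at 63.1 and 68.4 and ETFB, of the mitochondrial electron transfer flavoprotein, at 83.9 and 82.6. POLD1, the catalytic subunit of DNA polymerase delta, stood at 18.8 and 20.7, NR1H2, the oxysterol receptor LXR-beta, at 18.3 and 16.7, JOSD2, a deubiquitinase, at 5.28 and 7.87 and VSIG10L at 3.56 and 3.24. Against the sorted mean, JOSD2 was lower in resistant cells by more than 2-fold (log2 ratio -1.12).

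**Figure D3:**
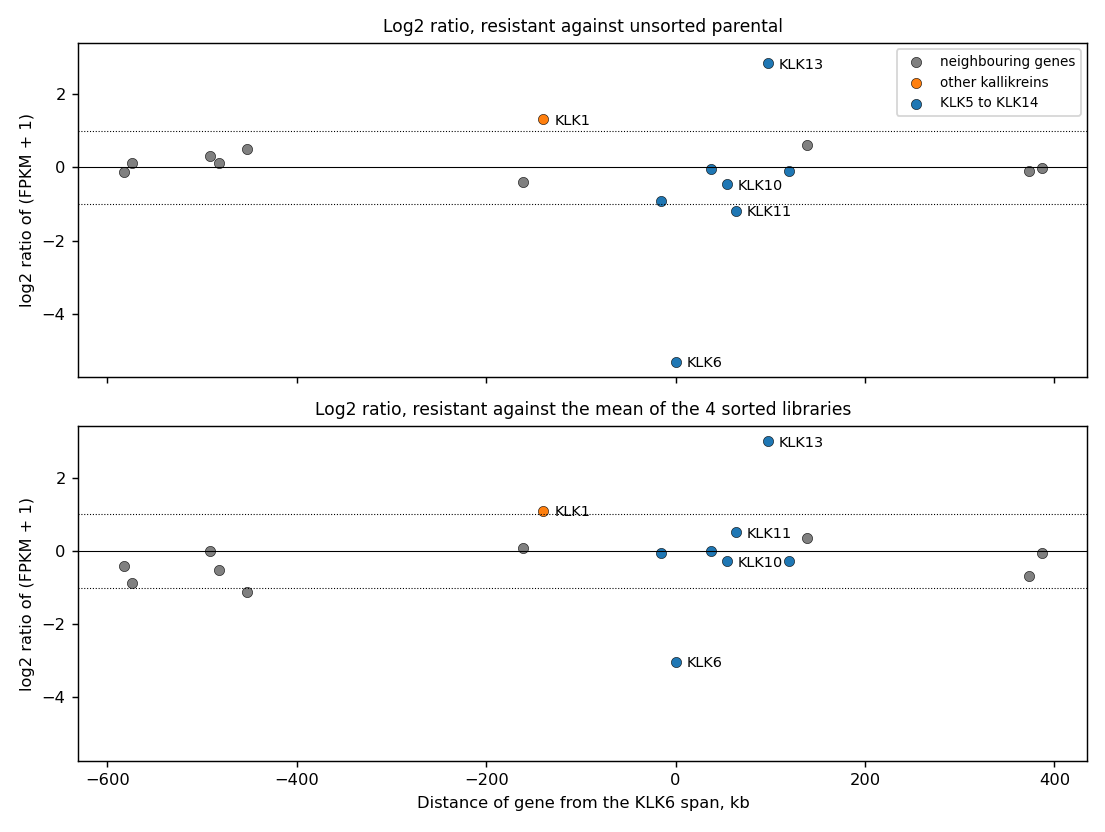
Log2 ratio of FPKM + 1 in resistant cells to unsorted parental cells (top) and to the mean of the 4 sorted libraries (bottom) against distance from KLK6 in kb, for genes of the cluster and its 500 kb flanks that reached an FPKM of 1. Each point is a gene and dotted lines mark 2-fold; KLK6 (-5.32 and -3.02) and KLK13 (2.84 and 2.99) lie farthest from 0 in both panels.

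The sorted fractions ask whether kallikrein levels follow the TRA-1-81 epitope within the parental line, a contrast that the choice of the cluster did not use. KLK6, KLK10, KLK11, KLK13 and KLK14 passed the filter, an FPKM of at least 1 in 2 of the 4 libraries. In a fit with no term for the number in the title, 0 of these 5 passed the limma threshold (adjusted p under 0.05 over all genes). The count depends on that choice, as the section on processing describes. Over 11533 genes 0.00867% passed, which is 1 gene. At an unadjusted p under 0.05 there were 3 of the 5 members and 565 of all genes.

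The mean FPKM of KLK10 was 140.5 ± 6.64 with and 119 ± 0.181 without the epitope (SD, n = 2 each). The log2 difference was 0.24 ± 0.07 (SE; limma adjusted p = 0.775). It was higher in positive cells by 0.29 within 0603 and 0.19 within 0610. KLK13 stood at 1.37 ± 0.114 and 0.831 ± 0.278 (SD, n = 2 each), a log2 difference of 0.38 ± 0.14 (SE; limma adjusted p = 0.962), with 0.49 within 0603 and 0.27 within 0610. For both genes the positive libraries lay above the negative ones without overlap, as for 18.6% of all genes tested. KLK14 had the opposite order, at 0.902 ± 0.147 and 1.45 ± 0.140 (SD, n = 2 each), a log2 difference of -0.37 ± 0.11 (SE; limma adjusted p = 0.775), with -0.23 within 0603 and -0.50 within 0610. Its positive libraries lay below the negative ones without overlap, as for 12% of genes.

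KLK6 and KLK11, by contrast, overlapped between the fractions. The mean FPKM of KLK6 was 60.3 ± 6.39 with and 63.7 ± 6.67 without the epitope (SD, n = 2 each). The log2 difference was -0.08 ± 0.12 (SE), with -0.08 within each number. KLK11 stood at 15.4 ± 1.09 and 15.6 ± 0.230 (SD, n = 2 each), a log2 difference of -0.02 ± 0.08 (SE), with -0.08 within 0603 and 0.03 within 0610. Both had a limma adjusted p near 1, which does not show that the fractions are alike. Among the 5 members that were not tested, KLK8 had values of 1.13 and 0.709 for positive libraries against 0.693 and 0.400 for negative ones (0603 first), higher in positive cells within each number. KLK9 stood at 0.324 and 0.443 against 0.227 and 0.232, and KLK7 at 0.152 and 0.192 against 0.126 and 0.0712, both also higher in positive cells within each number. KLK5 went the other way within each number, at 0.269 and 0.123 against 0.372 and 0.187. KLK12 was at or under the level of 3 fragments throughout. Among the 5 tested members, KLK10 and KLK13 were higher and KLK6 and KLK14 lower in positive cells within both numbers, where 38.4% of all genes tested were higher and 30.5% lower by that rule.

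**Figure D4:**
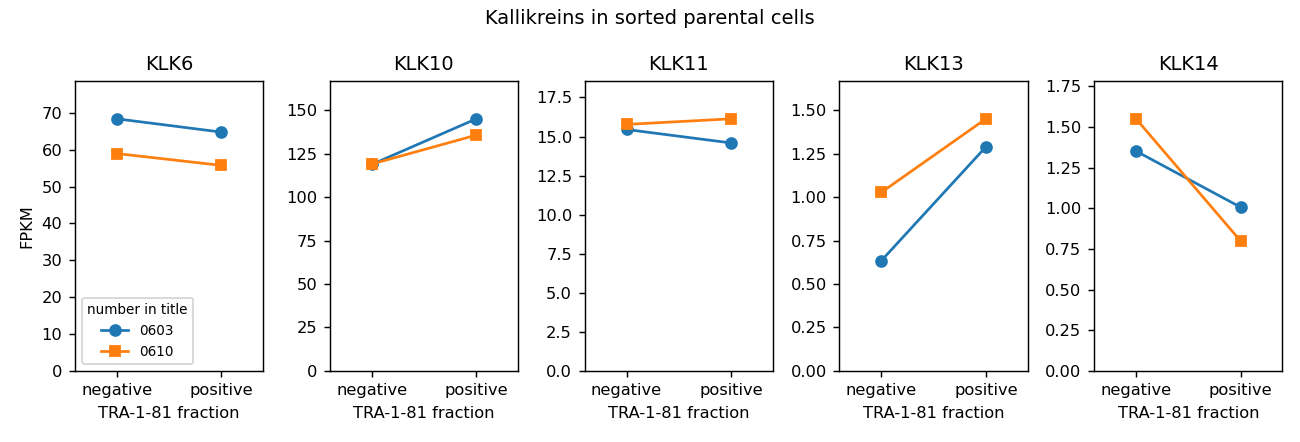
FPKM of the 5 tested kallikreins in TRA-1-81 negative and positive cells, with 1 point per library and lines joining libraries of the same number (0603 or 0610); each vertical axis starts at 0. KLK10 and KLK13 are higher and KLK14 lower in positive cells within both numbers, and KLK6 is lower in both 0610 libraries than in both 0603 libraries.

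Between numbers, KLK6 stood at 66.6 ± 2.55 in the 0603 and 57.3 ± 2.27 in the 0610 libraries (SD, n = 2 each). Both 0610 libraries lay below both 0603 libraries, as for 28.3% of genes tested. The log2 difference, 0610 minus 0603, was -0.21 ± 0.05 (SE; limma adjusted p = 0.0657). In this fit 0 of the 5 members and 9.08% of 11533 genes passed the threshold, and 1 of the 5 members and 3507 genes had an unadjusted p under 0.05. KLK10, KLK11, KLK13 and KLK14 had log2 differences of -0.05, 0.08, 0.20 and -0.02. All of these differences between sorted libraries are small beside the gap between the sorted and the resistant library for KLK6 (-3.02) and KLK13 (2.99). That is not so for each member's own gap. KLK14 differed by -0.37 between fractions and by -0.28 between resistant and sorted cells, and KLK10 by 0.24 and -0.28.

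Genes that act with kallikreins differed in both directions. Of 27 measured genes in the 4 lists below, 5 were at least 2-fold higher and 4 lower in resistant than in parental cells. Over all 12066 genes measured, 13.5% were higher and 6.9% lower. With so few genes in a list, the counts are a description of the genes and not a result about the lists. Of 9 proteases that activate kallikreins or act in plasmin formation beside them, 4 were measured, with resistant cells at least 2-fold above parental cells for 1 and below for 1. PLAT, tissue plasminogen activator, stood at 7.29 in parental, 75.4 in resistant and 13.2 to 14.4 in sorted cells. PRSS8, the membrane-anchored protease prostasin, stood at 71.3, 18.4 and 28.8 to 45.7. ST14, matriptase, stood at 45.9, 58.5 and 79.7 to 91.4. PLAT was highest and PRSS8 lowest in the resistant library, whereas ST14 there lay below the sorted libraries.

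Of 17 inhibitors, 9 were measured, with 2 at least 2-fold higher in resistant cells and 2 lower. PI3, the elastase inhibitor elafin, stood at 5.999 in unsorted parental, 179 in resistant and 11.2 to 20.4 in sorted cells. SERPINA5, protein C inhibitor, which inhibits several kallikreins, stood at 41.1, 13.3 and 13.5 to 22.7. SERPINA3, antichymotrypsin, stood at 42.9, 16.1 and 3.48 to 14.9. As with KLK11, the resistant value of SERPINA3 lay below the unsorted parental but above all sorted libraries. Unlike KLK11, SERPINA3 split by number in the sorted libraries, at 3.66 (positive) and 3.48 (negative) in 0603 and at 11.4 and 14.9 in 0610. Its margin over the negative 0610 library was thus narrow. The direction for SERPINA3 therefore depended on the parental cells used. SPINK5, which encodes LEKTI, was the other higher inhibitor, at 3.74, 9.10 and 3.18 to 6.34.

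Of 13 receptors and substrates, 8 were measured, with 2 at least 2-fold higher and 1 lower. IL1B, a cytokine precursor that KLK7 can cut, stood at 26.4 in parental, 258 in resistant and 28.2 to 42.0 in sorted cells. FN1, fibronectin, stood at 6.44, 58.4 and 29.5 to 55.7, so that its FPKM in resistant cells was 9.07-fold the parental value and 1.47-fold the sorted mean. FLG, filaggrin, a protein of the outer skin, stood at 7.79, 2.26 and 3.31 to 8.18. F2RL1, the receptor PAR2 that several kallikreins activate by cutting, stood at 18.8, 25.7 and 18.8 to 22.4.

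Of 9 nuclear hormone receptors, 6 were measured and 0 were at least 2-fold higher or lower, with log2 ratios of -0.42 for THRA, 0.25 for VDR and -0.11 for RARA. The largest ratio among the 6 was that of ESR2, oestrogen receptor beta, just under 2-fold at 0.98 on this scale, with an FPKM of 0.167 in parental, 1.31 in resistant and 0.634 to 1.09 in sorted cells. The progesterone receptor gene PGR was listed at 0 in every library. In the sorted fractions 25 genes of these 4 lists were tested, of which 0 passed the limma threshold and 4 had an unadjusted p under 0.05. Over all 11533 genes tested, 1 passed and 565 had an unadjusted p under 0.05. Between numbers 5 of the 25 passed, among them PRSS8, SERPINA3, SERPINA5 and SPINK5, where 9.08% of all genes passed. These counts are a description. The plot of the lists shows the kallikreins among their partners.

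**Figure D5:**
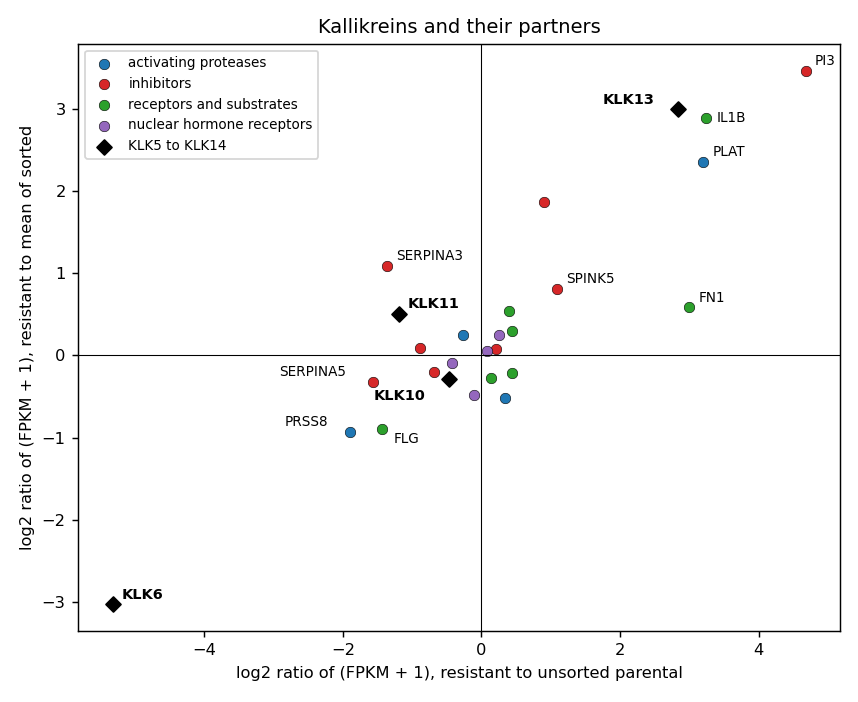
Log2 ratio of FPKM + 1 in resistant cells to unsorted parental cells (horizontal) and to the mean of the 4 sorted libraries (vertical) for KLK6, KLK10, KLK11 and KLK13 (black) and for partner genes that reached an FPKM of 5. Each point is a gene; both axes share the resistant library. KLK6 lies at the lower left (-5.32 and -3.02), and KLK13 (2.84 and 2.99) lies near PLAT, IL1B and PI3 at the upper right.

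The genes whose pattern over the 6 libraries was most like that of KLK6, by Pearson correlation of log2(FPKM + 1) among the 9668 genes that reached an FPKM of 5, were PGRMC1, TMEM18, MYOF, GLRB and GAPDH, at 0.997 to 0.999. With 6 libraries such values are common, and 730 genes had a correlation over 0.9. PGRMC1, a membrane haem-binding protein, stood at 79.6 in parental, 67.0 to 68.5 in sorted and 53.3 in resistant cells. GLRB, a glycine receptor subunit, stood at 9.70, 4.26 to 4.46 and 1.32. GAPDH, a glycolytic enzyme, stood at 7333, 4509 to 5142 and 2786. These genes were picked by their likeness to KLK6, so the shared order, highest in unsorted parental and lowest in resistant cells, follows from the choice. Their ratios were smaller than that of KLK6. Within the cluster the same correlation with KLK6 was 0.79 for KLK10, 0.45 for KLK11 and -0.81 for KLK13.

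Some markers of other cell types were higher in the resistant library. The 6 fibroblast markers summed to an FPKM of 20.2 in resistant, 2.86 in parental and 4.36 to 5.38 in sorted cells, of which COL1A1 and LUM were measured and both were at least 2-fold higher in the resistant library, at 14.1 and 6.04. COL1A2 and COL3A1 stood at 0.0880 or less in every library and DCN was listed at 0 in 5 of 6. PDGFRB stood at 0.0345 in resistant, 0.0157 in parental and 0.101 to 0.317 in sorted cells. The 5 leukocyte markers summed to 54.5 in resistant, 19.3 in parental and 22.6 to 29.2 in sorted cells, most of it from CD68, which stood at 51.9 in resistant, 15.6 in parental and 18.3 to 25.5 in sorted cells, while PTPRC, which marks all leukocytes, stood at 0.0205 or less. The 4 endothelial markers summed to 1.05 in resistant and 2.15 to 4.79 in the other libraries. The 4 acinar markers summed to 5.54 in parental and 0.567 to 1.65 in the others, with AMY2A listed at 0 throughout. The 4 endocrine markers summed to 0.0861 or less. Of the 6 epithelial markers, 1 was at least 2-fold above and 2 below the parental level in resistant cells. The part of these markers in the kallikrein levels was not tested.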

How the data were processed

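The authors deposited 1 table of gene values with symbol, hg19 position and RefSeq identifiers for the 6 libraries. Its header gives no unit. Since Cufflinks 2.1.1 reports FPKM and stands in the submitters' processing notes, with CASAVA 1.8.2, TopHat2 2.0.11 and hg19, the deposited values were read as FPKM. What each tool did, and its settings, is not given in the sources used here. Where a symbol was repeated (191 symbols) its row with the highest mean was used, which left out 235 of 19312 rows. Starts in the table are counted from 0 (317 of 353 short olfactory receptor genes have a span divisible by 3 that way) and are printed with 1 added.

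Fragment counts were not recovered, because Cufflinks shares fragments between transcripts. Depth was estimated roughly, from the lowest non-zero FPKM among olfactory receptor genes of short length (3 to 15 per library), with transcript lengths from GENCODE 29 by RefSeq identifier. An exact 0 can be a failed estimate.

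Sorted fractions, and libraries of different number, were tested on log2(FPKM + 1) using limma 3.58.1 (R 4.3.3), with a mean trend, two-sided and Benjamini-Hochberg adjusted over 11533 genes. The fit was tested on simulated data. All comparisons with the unsorted parental or resistant library are ratios with no test, counted past 2-fold among genes that reached an FPKM of 1 in a library compared. Alternatives were pseudocounts of 0.1 and 5, no filter, an FPKM of at least 5, quantile normalization, leaving out each sorted library, and the number or fraction as a term.

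The members and partner lists were chosen with earlier results of these data known. Named genes are all members, other kallikreins, neighbours reaching an FPKM of 5, 3 genes of each list by size of ratio to parental (of those that reached an FPKM of 5 in parental or resistant cells) and the 5 most like KLK6. CTU1, SPINK5, F2RL1, ESR2 and PGR were named after their values were seen. KLKP1 is not analysed here. Promoters come from RefSeq, GRCh38.p14; KLK8 was not matched.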

Additional observations from a re-analysis of the deposited data

How the results depend on the processing

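The ratios of KLK6 and KLK13 in resistant cells kept their sign and stayed past 2-fold under every alternative run, from -5.49 to -4.73 and 1.70 to 3.48 against unsorted parental and -3.18 to -2.51 and 1.75 to 3.76 against sorted cells; the extremes came with pseudocounts of 0.1 and 5. The count of genes differing between fractions, 1, was 0 with no filter and 0 with an FPKM of at least 5 (limma; 948 and 382 genes at an unadjusted p under 0.05), 1 to 5 when 1 sorted library was left out, and 1484 with the number as a replicate block. The labels do not say that the number pairs libraries. With that block 1484 of 11533 genes passed. KLK10, KLK13 and KLK14 were among them (limma adjusted p = 0.00176, 0.0164 and 0.0231) and KLK6 and KLK11 were not (0.159 and 0.777). A block leaves little residual spread in 4 libraries, so its p-values lean on the variance shared across all genes. Without the block 0 members passed in any setting that kept all 4 libraries. Deviations of libraries with the same number correlated at 0.654, a value from 2 pairs. The 1047 genes between numbers became 111 with no filter, 18 to 89 without 1 library and 4753 with the fraction as a term (replicate block), where KLK6 passed (limma adjusted p = 0.000739; 0.0566 to 0.245 in the 9 other alternatives). Leaving out 1 library gave log2 differences of -0.18 to 0.028 for KLK6 and -0.092 to 0.045 for KLK11 between fractions, and of -0.19 to 0.10 for KLK10, -0.038 to 0.45 for KLK13 and -0.27 to 0.23 for KLK14 between numbers, with signs that changed with the library left out. Leaving out 1 library also unbalances the numbers within the fractions, and KLK6 had the same sign within both numbers. Counts past 2-fold fell with a pseudocount of 5, which shrinks ratios by construction: 777 higher and 397 lower against parental, 449 and 244 for resistant against sorted, 238 and 115 for sorted against parental. A pseudocount of 0.1 gave 896 lower for resistant against sorted, and 1042 higher and 422 lower for sorted against parental. Ratios of members under an FPKM of 2 are limited by depth and by the pseudocount. Quantile normalization moved the share of higher genes for sorted against parental from 72.1% to 62.1%.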
